A study of Mus musculus with 12 samples.

Results

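Expression of 9 genes of airway secretory and club cells was followed in whole mouse lung, across 4 groups set by Nfat5 genotype and oxygen. The genes, listed by name with earlier results of these data known, were Scgb1a1, Scgb3a1, Scgb3a2, Cyp2f2, Reg3g, Muc5b, Bpifa1, Bpifb1 and Sult1d1. All 9 had a probe set on the arrays, among 24704 genes in all. Counts of these members set beside shares of all genes are therefore not independent of the data. The value of each gene is an RMA log2 expression value, the base-2 logarithm of probe signal on an Affymetrix array. Each array held RNA of 1 lung preparation, and there were 3 arrays in each group. The knockout groups were Nfat5(EC)-/- mice, in which Nfat5, the gene of a transcription factor that answers to high salt, had been removed from endothelial cells with tamoxifen (1 mg daily for 5 days), and they were kept in hypoxia for 21 days or in normoxia. The control groups were Nfat5fl/fl mice, which carried the same floxed alleles, received the solvent miglyol in place of tamoxifen and were kept in the same hypoxia or in normoxia. Male and female mice of 10 to 12 weeks entered, and 2 to 3 weeks of recovery followed the injections. The sources used here do not name the promoter that drives the recombinase. Tamoxifen was given to the knockout mice alone, so the drug and the deletion cannot be told apart. Perfused whole lung was lysed, so a lower value can come from fewer cells of a type or from less RNA per cell, and these cannot be told apart.

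Club cells are the secretory cells of the small airways. They make secretoglobins, detoxify inhaled compounds with cytochrome P450 and conjugating enzymes, and can give rise to ciliated and goblet cells after injury. Secretory cells also supply host defence to the airway lining, through mucins, antibacterial lectins and proteins of the BPI fold family, and several of these genes are switched on by cytokines such as IL-17 and IL-22. The deletion studied here was aimed at endothelial cells, not at these epithelial cells.

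Among the members, 6 had a promoter window in RefSeq (GRCm38.p6), covering 250 bases before and 50 bases after the start of a transcript. The windows of the called genes Reg3g and Sult1d1, and those of Bpifa1 and Bpifb1, the members with the highest within-group r to them, are shown 5′ to 3′ on the strand of the gene, and capitals mark every match to the motifs searched.
Reg3g, chr6:78468825-78469124, minus strand: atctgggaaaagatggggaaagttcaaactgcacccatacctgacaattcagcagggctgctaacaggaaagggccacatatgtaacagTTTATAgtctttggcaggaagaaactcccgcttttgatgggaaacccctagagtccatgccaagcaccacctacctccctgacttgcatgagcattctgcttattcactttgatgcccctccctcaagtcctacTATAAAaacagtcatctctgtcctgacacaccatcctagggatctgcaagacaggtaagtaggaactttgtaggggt
Sult1d1, chr5:87568957-87569256, minus strand: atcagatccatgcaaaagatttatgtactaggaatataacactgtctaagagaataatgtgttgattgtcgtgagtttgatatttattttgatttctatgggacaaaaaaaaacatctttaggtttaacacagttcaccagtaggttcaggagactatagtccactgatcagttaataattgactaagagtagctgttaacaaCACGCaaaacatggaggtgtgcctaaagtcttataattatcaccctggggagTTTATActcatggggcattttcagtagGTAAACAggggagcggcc
Bpifa1, chr2:154142630-154142929, plus strand: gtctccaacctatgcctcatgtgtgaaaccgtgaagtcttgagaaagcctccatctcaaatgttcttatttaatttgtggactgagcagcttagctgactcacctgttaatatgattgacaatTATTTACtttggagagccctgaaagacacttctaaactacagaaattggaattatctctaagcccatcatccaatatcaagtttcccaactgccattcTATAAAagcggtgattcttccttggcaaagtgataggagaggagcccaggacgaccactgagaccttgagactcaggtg
Bpifb1, the second of its windows, chr2:154200130-154200429, plus strand: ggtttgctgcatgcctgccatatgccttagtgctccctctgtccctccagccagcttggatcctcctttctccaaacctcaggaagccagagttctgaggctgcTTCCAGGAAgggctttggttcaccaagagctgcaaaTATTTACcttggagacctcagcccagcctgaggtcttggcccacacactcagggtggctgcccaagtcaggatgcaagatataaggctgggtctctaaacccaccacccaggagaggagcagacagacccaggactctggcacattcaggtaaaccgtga
The motifs, searched on both strands, were the TATA box (TATAAA), the HIF core (ACGTG and GCGTG), the STAT site (TTCNNNGAA), the forkhead site (TGTTTAC and TATTTAC), the C/EBP site (TTGCNNAA), the NFAT5 core (TGGAAA) and the clock E-box (CACGTG, which overlaps ACGTG). Reg3g had a TATA box starting 27 bases before its start, and a match on the opposite strand 161 bases before it. Bpifa1 had a TATA box starting 29 bases before its start and the forkhead letters TATTTAC 127 bases before it. TATAAA stood in 13.6% of all 32851 windows, and TATTTAC in 3.0%. Sult1d1 had GCGTG on the opposite strand 47 bases before its start, a motif found in 32.4% of windows, and opposite-strand matches to TATAAA and TGTTTAC after it. The second Bpifb1 window held TATTTAC at 110 bases and a STAT match at 146 bases before the start. The first Bpifb1 window and that of Cyp2f2 held none of these letters, and Scgb3a1 held a STAT match 194 bases before its start, letters found in 8.3% of windows. The NFAT5 core letters TGGAAA were in none of the 7 member windows searched and in 21.4% of all windows, which says only that these letters are not in these stretches.

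Over the whole series, the 12 arrays shared 1 distribution of values, with a median of 4.55 each, and arrays of a group correlated at 0.989 to 0.994. Nfat5 itself read 8.17, 8.46 and 8.40 in knockout hypoxia, 8.59, 8.80 and 8.62 in knockout normoxia, 8.61, 8.16 and 8.51 in control hypoxia and 9.01, 9.39 and 8.92 in control normoxia. Knockout lungs were therefore below controls in normoxia and overlapped them in hypoxia, in a tissue where cells other than endothelium keep the gene. The brown fat gene Ucp1 read 9.31 on 1 knockout normoxia array and 7.66 on 1 control hypoxia array, and at most 4.28 on the other 10. The same knockout normoxia array held the highest value of the heart gene Nppa, at 11.94, and the highest of Bpifa1, Sult1d1 and Scgb3a2 among the 12. The mean of 3 Y-linked genes was 5.34 or higher on 6 arrays and 3.26 or lower on 6, with the high arrays making up 2 of 6 in hypoxia and 4 of 6 in normoxia. The X-linked gene Xist read 8.15 to 10.4 on the 6 low arrays and 3.25 to 3.51 on the 6 high arrays. The split therefore follows sex, which the labels do not give for each mouse and which was uneven over oxygen. The series' design text says that preparations with other tissue in them or with a poor expression response to hypoxia were left out, so the hypoxia comparisons rest on animals picked partly on that response. The text counts 4 mice in each group, and replicates are taken to be separate mice.

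Hypoxia changed no member past the threshold in knockout lungs, and in control lungs it raised the antibacterial lectin Reg3g and lowered the sulfotransferase Sult1d1 and the secretoglobin Scgb3a2. In the fit by limma over all 24704 genes, 0 of the 9 members were called at an adjusted p under 0.05 in knockouts, against 1.14% of all genes (0.64% higher and 0.502% lower). In knockouts 3 of the 9 had an unadjusted p under 0.05, against 12.6% of all genes, and 2, Scgb3a2 and Sult1d1, had hypoxic arrays that did not overlap the normoxic ones, against 19.8% of all genes. In controls 3 of the 9 were called, against 11.5% of all genes, and of these 1 was higher and 2 were lower, where 5.36% of all genes were higher and 6.14% lower. In controls 5 of the 9 had an unadjusted p under 0.05, against 27.4% of all genes, and the 3 called members were those whose arrays did not overlap, against 27.7% of all genes. The median log2 change of the 9 members was -0.093 in knockouts and 0.18 in controls, beside 0.003 in knockouts and 0.011 in controls over all genes. The 2 hypoxia comparisons have no arrays in common, and the interaction, which tests whether they differ, passed for 0 of the 9.

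**Figure D1:**
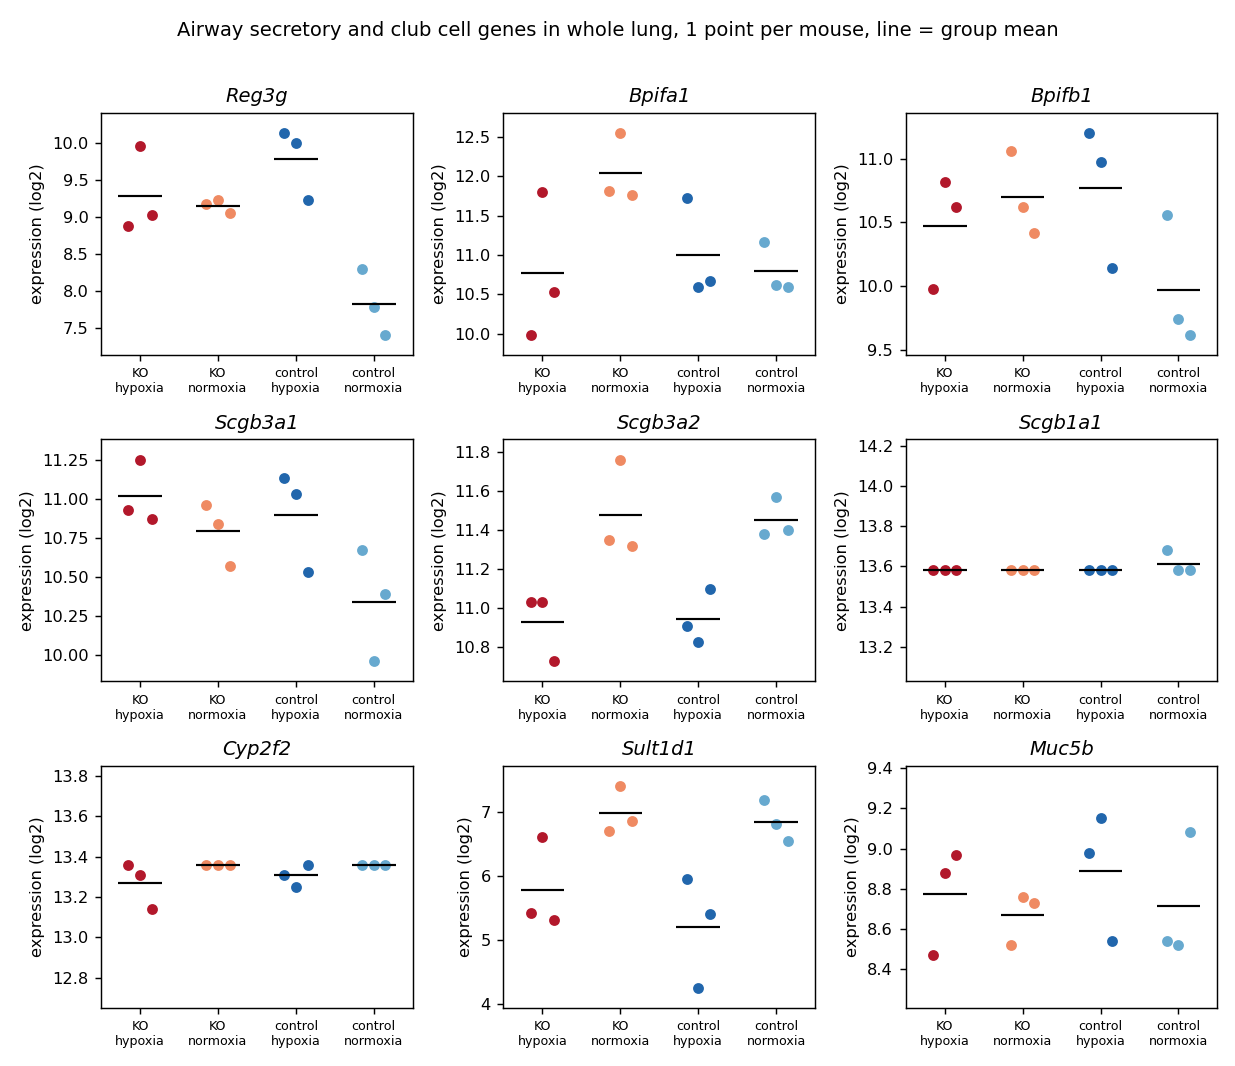
Log2 expression (vertical axis) of the 9 genes on each of 12 arrays, with 3 points per group and a line at the group mean; each panel has its own scale. The 3 control normoxia points of Reg3g lie at 7.41 to 8.29, below all its other points. Scgb1a1 stays within 13.58 to 13.68 and Cyp2f2 within 13.14 to 13.36.

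Reg3g is a C-type lectin that kills Gram-positive bacteria, best known from the mouse gut. It read 8.87, 9.95 and 9.03 in knockout hypoxia, 9.17, 9.23 and 9.05 in knockout normoxia, 10.13, 10.00 and 9.23 in control hypoxia and 8.29, 7.78 and 7.41 in control normoxia. The control normoxia lungs were the lowest 3 of the 12, and each of the other groups overlapped at least 1 other. Group means were 9.28 ± 0.58 in knockout hypoxia, 9.15 ± 0.09 in knockout normoxia, 9.79 ± 0.48 in control hypoxia and 7.83 ± 0.44 in control normoxia (SD, n = 3 each). The difference of hypoxia from normoxia in knockouts was 0.13 ± 0.31 (log2, standard error; limma adjusted p = 0.93), with a 95% interval of -0.54 to 0.80. Hypoxia raised Reg3g by 1.96 ± 0.31 in controls, or 3.89-fold (adjusted p = 0.0053). The difference between these responses was -1.83 ± 0.43, with an unadjusted p of 0.0012 and an adjusted p of 0.57.

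In normoxia, knockout Reg3g lay above control Reg3g on all arrays, by 1.33 ± 0.31 (unadjusted p = 0.0010), and the adjusted p was 0.52. In hypoxia the difference of knockouts from controls was -0.50 ± 0.31, with overlapping arrays and an interval of -1.17 to 0.16. The responses to hypoxia and the genotype difference in normoxia share the control normoxia arrays, whose values were low. Of the other 6 genes of the Reg family measured, none varied by more than 0.50 between any 2 arrays, and its close relative Reg3b read 3.31 to 3.64. All 6 stayed at 3.64 or lower, below the array median of 4.55 and near the lowest value of 2.41. A change can hardly show at that level, so their small range does not set Reg3g apart. Within the arrays low in Y-linked genes, Reg3g was 10.13 and 10.00 in control hypoxia and 8.29 in control normoxia. Within those high in them, it was 9.23 in control hypoxia and 7.78 and 7.41 in control normoxia. The control response passed without each of the 6 control arrays in turn, at 1.75 to 2.24.

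Bpifa1 and Bpifb1, secreted proteins of the BPI fold family that coat the airway lining, did not pass in any comparison. Bpifa1, also named SPLUNC1, limits sodium uptake by the epithelium and has antimicrobial activity. It read 9.99, 11.80 and 10.53 in knockout hypoxia, 11.81, 12.55 and 11.77 in knockout normoxia, 11.73, 10.60 and 10.67 in control hypoxia and 11.17, 10.62 and 10.60 in control normoxia. Knockout normoxia arrays were above all control normoxia arrays, by 1.25 ± 0.43 (adjusted p = 0.62). Hypoxia minus normoxia was -1.27 ± 0.43 in knockouts (adjusted p = 0.22), where 1 hypoxic array at 11.80 reached the normoxic ones, and 0.20 ± 0.43 in controls (adjusted p = 0.81). The interaction was -1.48 ± 0.61 (adjusted p = 0.60).

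Bpifb1 read 9.98, 10.82 and 10.62 in knockout hypoxia, 11.06, 10.62 and 10.42 in knockout normoxia, 11.20, 10.97 and 10.14 in control hypoxia and 10.56, 9.74 and 9.62 in control normoxia. Its groups overlapped in every pair with a shared oxygen state or genotype. The difference of hypoxia from normoxia was -0.23 ± 0.32 in knockouts (adjusted p = 0.87) and 0.79 ± 0.32 in controls (adjusted p = 0.13), and the genotype difference in normoxia was 0.72 ± 0.32 (adjusted p = 0.68). In each of the 4 groups, Bpifb1 was higher on the arrays low in Y-linked genes than on those high in them, a pattern met by 257 genes or 1.04% of all. The gaps between the means of such arrays were 0.74 in knockout hypoxia, 0.54 in knockout normoxia, 0.95 in control hypoxia and 0.88 in control normoxia. Reg3g and Scgb3a1 were higher on the low arrays, without overlap, in 3 of the 4 groups. Bpifa1 and Muc5b were so in 2, Scgb1a1 and Sult1d1 in 1, and Scgb3a2 and Cyp2f2 in 0. The shares of all genes for fewer than 4 groups were not counted. With the Y-linked mean as a covariate, the control response of Bpifb1 was 0.43. Bpifa1 and Bpifb1 lie close together on chromosome 2 with 1 protein-coding gene between them. The family had 14 genes measured, and among the 12 others Bpifb5 was called in control hypoxia, at 0.41 ± 0.10 (adjusted p = 0.030), where 11.5% of all genes were called. Contrasts of the 12 were read only for those in the goblet cell and mucus list given below.

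The secretoglobins are small secreted dimers, of which Scgb1a1 is the defining product of club cells. Scgb3a2, a secretoglobin made along the airway tree, fell in hypoxic control lungs and in the average over genotypes. It read 11.03, 11.03 and 10.73 in knockout hypoxia, 11.35, 11.76 and 11.32 in knockout normoxia, 10.91, 10.83 and 11.10 in control hypoxia and 11.38, 11.57 and 11.40 in control normoxia. All 6 hypoxic lungs lay below all 6 normoxic lungs, a split whose share over all genes was not counted. Within a genotype, hypoxic and normoxic arrays did not overlap for 19.8% of all genes in knockouts and 27.7% in controls. The difference was -0.55 ± 0.13 in knockouts (adjusted p = 0.085) and -0.50 ± 0.13 in controls (adjusted p = 0.033), or 1.42-fold lower. Averaged over genotypes it was -0.53 ± 0.09 (adjusted p = 0.0050), and the interaction was -0.049 ± 0.19, with an interval of -0.46 to 0.36. Knockouts and controls overlapped in both oxygen states, with a difference of 0.027 in normoxia (interval -0.26 to 0.32) and -0.021 in hypoxia (interval -0.31 to 0.27). Leaving out 1 control array at a time gave -0.58 to -0.44, and the control call was lost without hypoxia mouse 1 or 2 or normoxia mouse 1 or 2 (adjusted p = 0.069 to 0.127). It was also lost with the Y-linked mean as a covariate (-0.41, adjusted p = 0.073). The call averaged over genotypes held in 12 of 12 such fits, at -0.56 to -0.45.

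Scgb3a1, a secretoglobin of the larger airways in mice, had higher means in hypoxia without passing. It read 10.93, 11.25 and 10.87 in knockout hypoxia, 10.96, 10.84 and 10.57 in knockout normoxia, 11.13, 11.03 and 10.53 in control hypoxia and 10.67, 9.96 and 10.39 in control normoxia. The control hypoxia and control normoxia arrays overlapped through 1 hypoxic lung at 10.53. The hypoxia difference was 0.23 ± 0.20 in knockouts (adjusted p = 0.73) and 0.55 ± 0.20 in controls (adjusted p = 0.097). The control difference passed without that array, at 0.73 (adjusted p = 0.048), and the genotype difference in normoxia was 0.44 ± 0.20 (adjusted p = 0.69). Of the 23 other secretoglobin genes measured, Scgb1c1 read 7.94 to 8.99 on the 12 arrays.

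Scgb1a1 and Cyp2f2, the cytochrome P450 that activates naphthalene in mouse club cells, lay at the top of the shared distribution, where a rise can hardly show. Scgb1a1 had rank 2 of 24704 genes on 11 arrays, at 13.58 each, and rank 1 on 1 control normoxia array, at 13.68. Cyp2f2 ranked between 4 and 8 and read 13.36, 13.31 and 13.14 in knockout hypoxia, 13.36 on each array of knockout normoxia, 13.31, 13.25 and 13.36 in control hypoxia and 13.36 on each array of control normoxia. Cyp2f2 had rank 4 on all 6 normoxic arrays and a lower place on 4 of the 6 hypoxic ones, and its hypoxia difference did not pass in knockouts (-0.093, adjusted p = 0.70) or in controls (-0.055, adjusted p = 0.70). Because the arrays had been brought to 1 distribution, a gene with a fixed rank has a fixed value. Equal values here reflect rank alone, and the values set no bound on the change of either RNA.

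Sult1d1, a cytosolic sulfotransferase that acts on catecholamines in mice, fell furthest of the 9 in hypoxic control lungs. It read 5.43, 6.60 and 5.32 in knockout hypoxia, 6.70, 7.40 and 6.86 in knockout normoxia, 5.96, 4.26 and 5.40 in control hypoxia and 7.18, 6.81 and 6.55 in control normoxia. Hypoxic and normoxic arrays did not overlap in either genotype, although the highest hypoxic knockout at 6.60 lay just above the lowest normoxic control at 6.55. The difference was -1.20 ± 0.42 in knockouts (adjusted p = 0.23) and -1.64 ± 0.42 in controls, or 3.12-fold lower (adjusted p = 0.029). Averaged over genotypes it was -1.42 ± 0.30 (adjusted p = 0.0096), and the interaction was 0.44 ± 0.59 (interval -0.85 to 1.73). Genotype differences were 0.14 in normoxia (interval -0.78 to 1.05) and 0.58 in hypoxia (interval -0.34 to 1.49). Leaving out 1 control array at a time gave -2.02 to -1.17, and the call was lost without control hypoxia mouse 2 or 4 or control normoxia mouse 1 or 2 (adjusted p = 0.054 to 0.105). It was also lost with the Y-linked mean as a covariate (-1.66, adjusted p = 0.056).

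Muc5b, the gel-forming mucin that carries routine mucus clearance in mouse airways, stayed within 8.47 to 9.15 on the 12 arrays. Its means were 8.78 ± 0.27 in knockout hypoxia, 8.67 ± 0.13 in knockout normoxia, 8.89 ± 0.31 in control hypoxia and 8.71 ± 0.32 in control normoxia (SD, n = 3 each). All pairs of groups overlapped, and the hypoxia difference was 0.10 in knockouts (interval -0.32 to 0.52) and 0.18 in controls (interval -0.24 to 0.60).

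**Figure D2:**
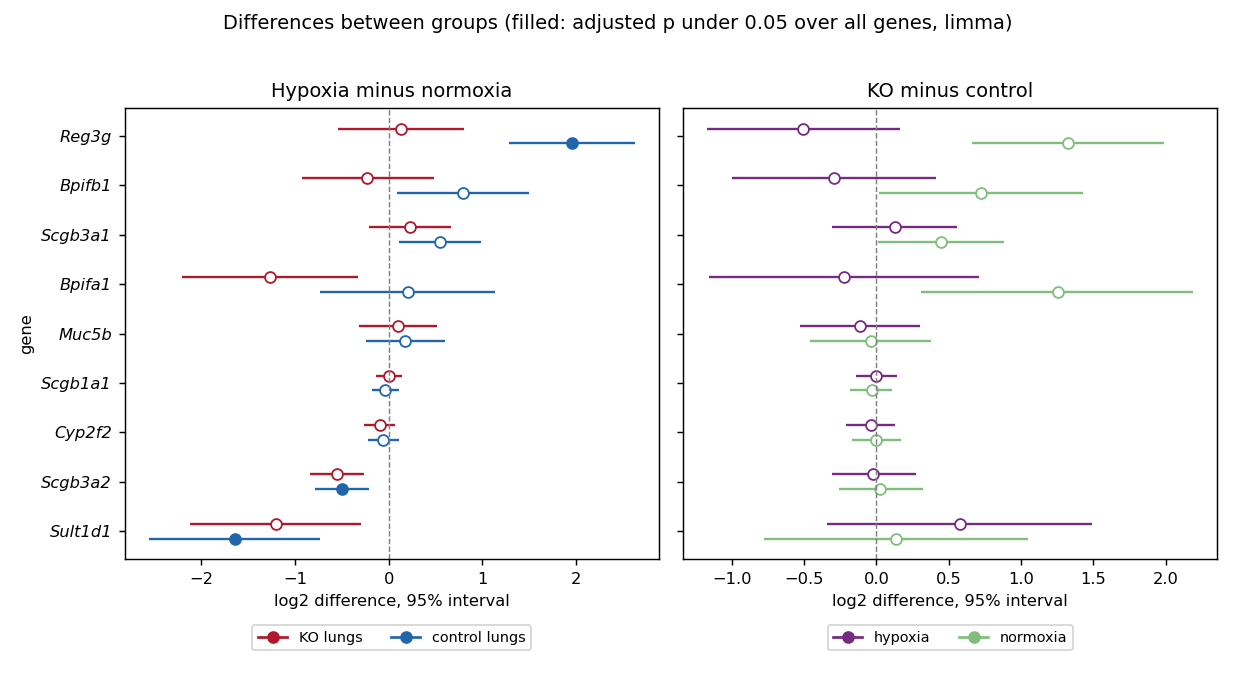
Log2 differences with 95% intervals from limma for each gene, hypoxia minus normoxia on the left (knockout above control) and knockout minus control on the right (hypoxia above normoxia); filled points passed at an adjusted p under 0.05. The filled points are Reg3g at 1.96, Scgb3a2 at -0.50 and Sult1d1 at -1.64, all in control lungs, and the interaction called 0 of the 9.

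No member passed in any comparison of knockout with control lungs. In normoxia 0 of the 9 were called by limma, against 0.00405% of all genes, and 4 of the 9 had an unadjusted p under 0.05, against 7.26% of all genes. These 4 were Reg3g, Bpifa1, Bpifb1 and Scgb3a1, all higher in knockouts, and Reg3g and Bpifa1 did so with no overlap, as did 5.46% of all genes in that direction. In hypoxia 0 of the 9 were called, against 0% of all genes, and 0 had an unadjusted p under 0.05, against 5.1% of all genes. Averaged over oxygen states 0 were called, against 0%, and 0 had an unadjusted p under 0.05, against 4.26%. In the interaction 0 were called, against 0.00405% of all genes, while Reg3g, Bpifa1 and Bpifb1 had an unadjusted p under 0.05, against 8.25% of all genes. Averaged over genotypes, hypoxia called 3 of the 9, against 14.7% of all genes, and 4 of the 9 had an unadjusted p under 0.05, against 28.4% of all genes. Of the 3, 1 was higher, where 7.27% of all genes were higher, and 2 were lower, where 7.4% were lower. These were Reg3g (1.05 ± 0.22, adjusted p = 0.0093), Sult1d1 and Scgb3a2, and for Reg3g this mean joins 0.13 in knockouts with 1.96 in controls.

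Other measures moved beside these hypoxia differences. The mean of 12 nuclear noncoding RNAs such as Neat1 and Malat1 was 5.73 to 6.09 in knockout hypoxia, 6.0 to 6.37 in knockout normoxia, 5.59 to 5.87 in control hypoxia and 6.20 to 6.55 in control normoxia. The mean of 14 large airway cartilage genes was 3.82 to 3.84 in knockout hypoxia, 3.76 to 3.83 in knockout normoxia, 3.91 to 3.98 in control hypoxia and 3.76 to 3.88 in control normoxia, with the defining genes Col2a1 at 4.22 to 4.63 and Acan at 3.16 to 3.48. The cartilage means all lie below the array median of 4.55, and whether such small shifts track cartilage was not tested. The nuclear RNA mean and the cartilage mean both separated the control groups fully, so in controls they cannot be told apart from oxygen. With the nuclear RNA mean as a covariate the control differences were 2.64 for Reg3g, -0.17 for Scgb3a2 and -0.09 for Sult1d1. With the cartilage mean they were 2.59 for Reg3g, -0.23 for Scgb3a2 and -0.38 for Sult1d1. Neither fit called a member, and of all genes they called 2 and 3 in place of 2839. The part of these measures in the results was not tested. Without the 2 arrays high in Ucp1, a fit chosen after seeing the data, the member calls numbered 0 in knockouts and 3 in controls, as with them, and the interaction of Bpifa1 was -0.86.

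The members differed in how much they varied among mice of a group. The pooled SD within groups was 0.63 for Bpifa1, 0.61 for Sult1d1, 0.47 for Bpifb1 and 0.44 for Reg3g, beside a median of 0.15 over all genes. After group means were removed, r was above 0 in 24 of 36 pairs of members. These include the pairs of Scgb1a1, which varied in control normoxia alone, through 1 array. Their exact permutation p could not fall below 0.33, so they could not pass. Cyp2f2 varied in the hypoxic groups alone. By exact permutation of arrays within groups (two-sided, 1296 reorderings), 5 pairs had an unadjusted p under 0.05 and 0 passed after adjustment over the 36. The pair Reg3g and Bpifb1 had r = 0.847 and rho = 0.867 over 12 arrays (exact permutation p = 0.0023 for r and 0.0039 for rho, adjusted p = 0.083 and 0.14). Without the 2 arrays farthest from the median of Reg3g its r was 0.813. The pair Bpifa1 and Sult1d1 had r = 0.85 and rho = 0.811 (exact permutation p = 0.0054 for r and 0.0085 for rho, adjusted p = 0.097 and 0.15), and r was 0.557 without the 2 farthest arrays.

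The remaining pairs under 0.05 were Scgb3a1 with Bpifb1 (r = 0.807), Reg3g with Bpifa1 (r = 0.792) and Scgb3a1 with Reg3g (r = 0.73). Y-linked levels differed within groups as well, and their part in these correlations was not tested. With Scgb3a2, r was -0.041 for Reg3g, -0.392 for Bpifb1 and 0.257 for Bpifa1, none of which passed, and that for Reg3g was 0.227 without the 2 farthest arrays.

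**Figure D3:**
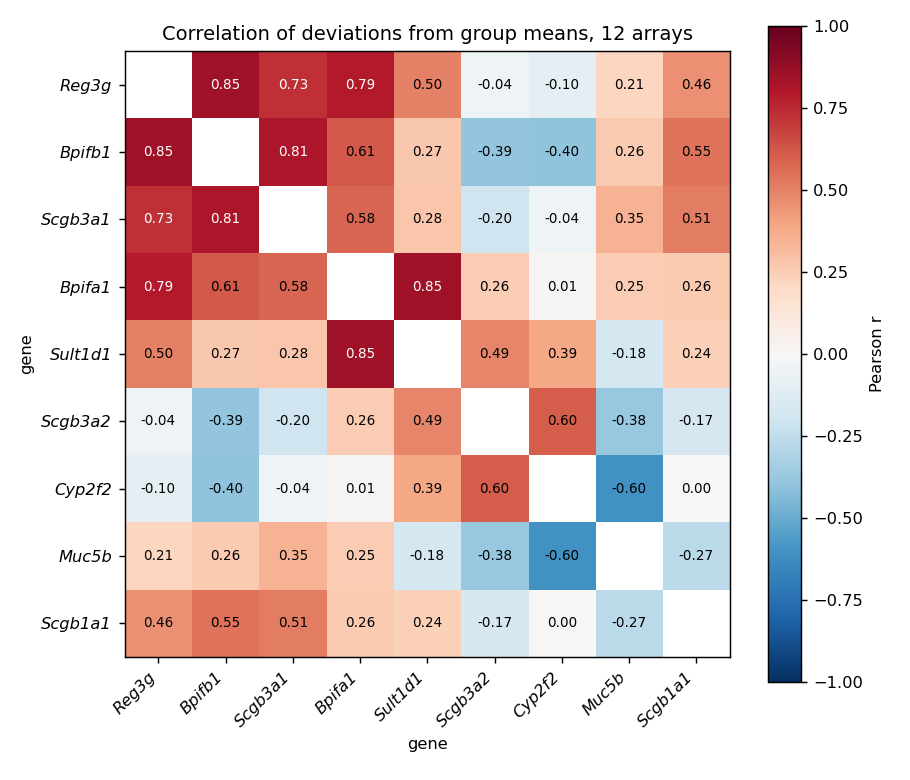
Pearson r between members (rows and columns) over 12 arrays after group means were removed, from -1 (blue) to 1 (red). Reg3g, Bpifb1, Scgb3a1 and Bpifa1 form a red block with r of 0.58 to 0.85, and Sult1d1 joins it through Bpifa1 at 0.85; 0 of the 36 pairs passed after adjustment.

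Among 4551 genes with an SD of at least 0.25 over the arrays, those most like each member, by r over 12 arrays within groups, are given as descriptions, and the points share arrays and differ in Y-linked level. For Reg3g they were Acbd5 (0.928), Slc38a6 (0.897) and Vamp7-ps (0.893). For Bpifa1 they were Dync2h1 (0.983), Dsel (0.956) and Dnah12 (0.953), and for Sult1d1 they were Capn7 (0.983), Sacm1l (0.979) and Rabep1 (0.975). For Bpifb1 they were Tlr8 (0.962), Xist (0.959) and Kdm6a (0.95), all 3 genes of the X chromosome. For Scgb3a1 they were Sfrp4 (0.892), Micu2 (0.862) and Chaf1a (0.859), for Scgb3a2 Ppp1r36 (0.856), Slc5a8 (0.856) and Ifi205 (0.855), and for Muc5b Tdg (0.879), Kdm8 (0.845) and Atpaf2 (0.843). For Cyp2f2 they were Iglv3, Kcnrg and Nupr1 and for Scgb1a1 Klrd1, Esyt3 and Zfp442, which rest on the few arrays where the top rank changed.

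Of 27 other genes of club cells measured, 0 rose and 3 fell with hypoxia in knockouts, where 0.64% of all genes rose and 0.502% fell. In controls 0 rose and 3 fell, where 5.36% of all genes rose and 6.14% fell. These shares of all genes are the background of each list that follows, and the interaction called 0 genes of any of them. The club cell list had medians of -0.016 in knockouts and -0.105 in controls. In both genotypes the falls were those of Cyp4b1, a cytochrome P450 (-0.52 ± 0.09 in knockouts and -0.63 ± 0.09 in controls), Hpgd, which breaks down prostaglandins (-0.85 ± 0.17 in knockouts and -0.96 ± 0.17 in controls), and the stress protein gene Nupr1 (-0.81 ± 0.13 in knockouts and -0.53 ± 0.13 in controls). Cyp4b1 and Hpgd are also made by other lung cells, endothelium among them. Of 25 goblet cell and mucus genes, 1 rose and 0 fell in knockouts (0.64% and 0.502% of all genes), and 2 rose and 3 fell in controls (5.36% and 6.14% of all genes). In knockouts the membrane mucin Muc1 rose by 0.55 ± 0.10. In controls Gp2 rose by 0.88 ± 0.20, and the disulfide isomerase gene Agr3 (-0.96 ± 0.22), the membrane mucin Muc16 (-1.10 ± 0.30) and the sialyltransferase St6galnac1 (-0.60 ± 0.16) fell. Gp2 read 3.22 to 4.56 and St6galnac1 read 3.40 to 4.33 over all arrays, around or below the array median of 4.55. In control hypoxia Gp2 read 4.39, 4.56 and 3.57, and in control normoxia 3.22, 3.32 and 3.34, so its rise lay mostly in 2 of the 3 hypoxic mice.

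Of 31 antimicrobial genes and genes of IL-17 and IL-22 responses, 1 rose and 3 fell in knockouts (0.64% and 0.502% of all genes), and 2 rose and 1 fell in controls (5.36% and 6.14% of all genes). Lcn2, which starves bacteria of iron, rose by 1.02 ± 0.18 in knockouts (adjusted p = 0.021) and by 0.68 ± 0.18 in controls (adjusted p = 0.031). The nitric oxide synthase Nos2 rose in controls (0.79 ± 0.16). The neutrophil protein gene S100a9 fell in both genotypes (-0.60 ± 0.11 in knockouts and -0.42 ± 0.11 in controls), and S100a8 (-0.53 ± 0.11) and Nfkbiz (-0.63 ± 0.12) fell in knockouts. S100a9 read 3.43 to 4.26 and S100a8 read 3.12 to 3.99 on the 12 arrays, both below the array median of 4.55. Of 17 airway transcription factors, 0 passed in knockouts (1.14% of all genes), and 1 rose and 2 fell in controls (5.36% and 6.14% of all genes). The control calls were Cebpa (0.41 ± 0.11), Nfib (-0.50 ± 0.12) and the Notch target Hes1 (-0.38 ± 0.11).

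Of 19 ciliated cell genes, 0 passed in knockouts, where 0.502% of all genes fell, and 0 rose and 7 fell in controls, where 6.14% of all genes fell. The list's medians were -0.212 in knockouts and -0.263 in controls, and the interaction called 0 of the 19. Ciliated cells share the airway lining with the secretory cells. The axonemal dynein gene Dnah12 read 5.89, 7.12 and 6.19 in knockout hypoxia, 6.97, 7.92 and 6.83 in knockout normoxia, 6.31, 5.25 and 5.44 in control hypoxia and 8.27, 7.86 and 7.49 in control normoxia. Its knockout groups overlapped (-0.83 ± 0.38, adjusted p = 0.40) and its control groups were apart by -2.21 ± 0.38 (adjusted p = 0.0073). Lrriq1 (-1.54 ± 0.26), Cfap47 (-1.69 ± 0.33) and Spag17 (-1.10 ± 0.22) fell in controls as well. The genes named here are among the 7 that fell. The mean of the list was 6.44 to 6.75 in knockout hypoxia and 6.63 to 6.95 in knockout normoxia, which overlapped. In controls it was 6.21 to 6.48 in hypoxia and 6.79 to 7 in normoxia, without overlap, as 27.7% of all genes were singly. Differences lay above 0 for 4 of the 19 in controls and for 6 of the 19 in knockouts, none of them called. Within groups, Sult1d1 and the mean of the ciliated list had r = 0.834 and rho = 0.825 over 12 arrays (exact permutation p = 0.0069 for r, adjusted p = 0.15 over 27 relations, r = 0.861 without the 2 farthest arrays). With the nuclear RNA mean it had r = 0.725 and rho = 0.692 (exact permutation p = 0.016 for r, adjusted p = 0.15, r = 0.718 without the 2 farthest arrays). These lists were picked after values had been seen, and 0 of the 27 relations passed.

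Of 8 basal cell genes 0 passed in knockouts (1.14% of all genes) or in controls (11.5% of all genes), and the basal keratin gene Krt5 differed by 0.05 ± 0.18 in knockouts and 0.56 ± 0.18 in controls (adjusted p = 0.063). Genotype comparisons called 0 genes of these 6 lists. The lactoferrin gene Ltf, an iron-binding protein of mucus, did not pass in any comparison and is given for its values. It read 4.81, 7.46 and 6.30 in knockout hypoxia, 7.21, 8.40 and 6.81 in knockout normoxia, 7.62, 6.95 and 6.06 in control hypoxia and 5.57, 5.08 and 5.43 in control normoxia. All control normoxia lungs were below all knockout normoxia lungs, and the hypoxic groups overlapped. Knockouts differed from controls by 2.11 ± 0.60 in normoxia (adjusted p = 0.57), and the interaction was -2.80 ± 0.85 (adjusted p = 0.57).

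**Figure D4:**
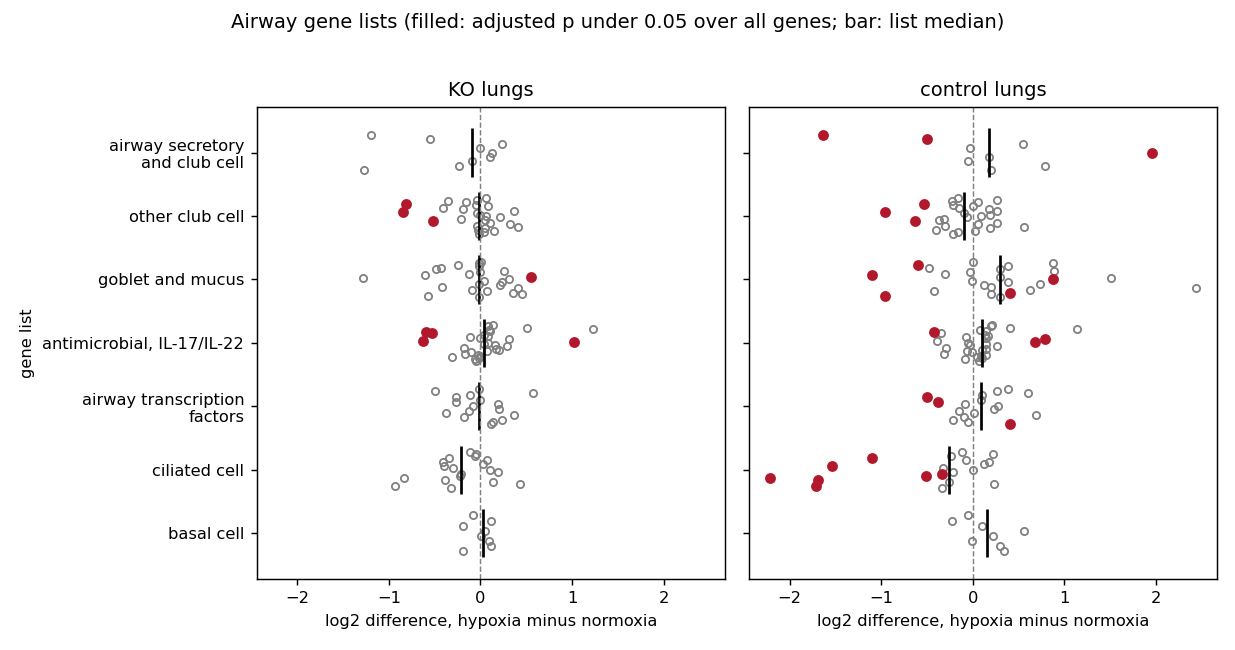
Log2 differences of hypoxia from normoxia for single genes (points) of 7 airway lists in knockout lungs (left) and control lungs (right), with filled points for an adjusted p under 0.05 and a bar at each list's median. In control lungs the 7 filled ciliated points all lie below 0, down to -2.21 for Dnah12, in knockout lungs 0 ciliated points are filled, and the interaction called 0 ciliated genes.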

How the data were processed

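Whole-lung RNA of 12 preparations was hybridised to Affymetrix arrays as biotin-labelled cRNA. The authors deposited log2 expression values, made with RMA per the submitters' processing notes; the sources used here state neither its version nor the probe annotation. RMA brings arrays to 1 distribution, so a change in total RNA is not visible, and 25428 probe sets were reduced to 24704 named genes (1 symbol each, highest mean kept). No filter on low values was used. No read depth applies, and the number of arrays limits precision.

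Each gene was fitted with limma 3.58.1 (R 4.3.3) by 1 mean per group (4 groups, residual df 8, prior df 3.61, no trend), and 7 contrasts were tested two-sided. Adjusted p-values are Benjamini-Hochberg over the 24704 genes within a contrast. Called means an adjusted p under 0.05, and every adjusted p of a gene is limma's; errors of log2 changes are standard errors. Correlations used deviations from group means and exact permutation within groups (SciPy 1.17.1, NumPy 2.4.6). The fit was tested on simulated data.

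The members and lists were chosen with earlier results of these data known. Named outside the members were, per list and contrast, up to 4 called genes in each direction with the smallest adjusted p, or at most 2 uncalled with the smallest unadjusted p, and for each member the 3 genes with the highest r; Nfat5, Ucp1, Nppa, Col2a1, Acan and Y-linked genes could be named too. Reg3b and Scgb1c1, of the members' families, were chosen after their values were seen. Alternatives changed the groups in the fit, variance moderation, dim-gene filter, normalization, array weights, replicate block, covariates and single arrays.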

Additional observations from a re-analysis of the deposited data

How the results depend on the processing

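Members called in control hypoxia numbered 3. They numbered 0 with the nuclear RNA mean or the cartilage mean as a covariate, 1 with the Y-linked mean (Reg3g; Sult1d1 and Scgb3a2 were lost), 2 with array weights, with only the groups compared or with the replicate block, and 1 to 3 without 1 replicate (1 without control hypoxia mouse 2, control normoxia mouse 1 or control normoxia mouse 2). In knockout hypoxia the 0 became 1 with an intensity trend (Scgb3a2, adjusted p = 0.047). Averaged over genotypes the 3 became 0 with the nuclear RNA or the cartilage covariate and 3 to 4 without 1 replicate, where Scgb3a1 joined without control hypoxia mouse 4 (0.48, adjusted p = 0.041). The cause of these changes was not tested. Genotype comparisons and the interaction called 0 members in every alternative run. The 6 member calls changed sign in 0 of 120 fits, and 24 of the 57 uncalled differences did so in at least 1 fit. The replicate block left Reg3g at 1.96 (adjusted p = 0.0050), Sult1d1 at -1.64 (adjusted p = 0.034) and Scgb3a2 at -0.50 (adjusted p just above the threshold, so not passing). Same-numbered arrays of different groups correlated at -0.248 to 0.277 in 15 pairs, and differently numbered ones at -0.321 to 0.341 in 39 pairs. Of the 12 arrays, 2 correlated best with their own number. These values cannot settle whether the numbers mark a shared batch. The Y-linked mean was 2.98, 3.04 and 3.25 on arrays numbered 1, 3.08 to 6.69 on those numbered 2, and 3.26, 5.34, 6.12 and 6.18 on those numbered 4. Over all genes, the 2839 calls in control hypoxia became 2 with the nuclear RNA mean, 3 with the cartilage mean, 1794 with the Y-linked mean, 1100 with only the groups compared, 2058 with the block and 808 to 3920 without 1 replicate. The 282 calls in knockout hypoxia became 40 with the block, 156 with the nuclear RNA mean, 162 with the cartilage mean, 166 with the Y-linked mean, 508 with array weights, 51 without the 2 arrays high in Ucp1 (chosen after seeing the data) and 71 to 148 without 1 replicate. The 3622 calls averaged over genotypes became 59 with the nuclear RNA mean, 66 with the cartilage mean and 2180 with the Y-linked mean. Pairs of members with r above 0 numbered 24 of 36, 23 after cyclic loess and 18 of 28 without the 2 farthest arrays. Scgb1a1 no longer varied without those arrays, so its pairs are not among the 28.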

Other observations

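Alveolar epithelium was read beside the airway genes. With hypoxia 0.64% of all genes rose and 0.502% fell in knockouts, and 5.36% rose and 6.14% fell in controls. Of 12 alveolar type 2 genes, 2 rose and 0 fell with hypoxia in knockouts, and 2 rose and 0 fell in controls. The knockout rises include Muc1, which stands in both lists and is also the knockout call of the goblet list. The aspartic protease gene Napsa rose in both genotypes (0.53 ± 0.11 in knockouts and 0.50 ± 0.11 in controls). Of 10 alveolar type 1 genes, 1 rose and 0 fell in knockouts, and 2 rose and 2 fell in controls. The growth factor binding protein gene Igfbp2 rose in both genotypes, by 0.91 ± 0.11 in knockouts (adjusted p = 0.0051) and by 1.48 ± 0.11 in controls (adjusted p = 0.00017). Of 8 neuroendocrine genes, 0 passed in knockouts, and 2 rose in controls, among them the ubiquitin hydrolase gene Uchl1 (0.48 ± 0.14).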
